A study of Mus musculus with 6 samples.

Results

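AP-1 is a family of transcription factors built as pairs of Fos and Jun proteins, and 10 genes of this family and of the immediate early response were followed across all libraries. They are the Fos genes Fos, Fosb, Fosl1 and Fosl2, the Jun genes Jun, Junb and Jund, and the early response genes Egr1, Atf3 and Ier2. They were picked by name, as 10 of the 32110 genes in the files, and all 10 passed the filter on low values. Bulk RNA was sequenced from CT26 tumors, a colon carcinoma line of Balb/c mice, injected intradermally into male wild type Balb/c mice and grown to about 0.8 cm. The 3 iRFA-treated tumors had received incomplete radiofrequency ablation (iRFA), an electrode at 70 °C for 1.5 to 2.0 min that leaves part of the tumor alive, and what was left of the tumor was taken 3 days later. The 3 untreated tumors carry no time point in the labels, and nothing in the labels describes a sham procedure for them. Each library is taken here as 1 tumor, though the labels say only that the replicates are separate samples. Levels are given in FPKM, fragment counts scaled to transcript length and to the size of the library. Different genes within a library can thus be set side by side.

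Immediate early genes are switched on within minutes of a stimulus by MAP kinases, without new protein synthesis, and most of their transcripts are short-lived. Fos proteins bind DNA only as partners of Jun proteins, whereas Jun proteins can also pair with each other. Fosl1, which encodes FRA-1, is itself an AP-1 target that responds later and lasts longer, and it is known for its high level in invasive carcinoma cells with an active RAS pathway. In a tumor sampled 3 days after injury, the comparison addresses which AP-1 genes differ between treated and untreated tissue.

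The untreated libraries did not form a single group. Over the 15560 genes tested, the log2 values of untreated replicates 1 and 2 correlated with each other at a Pearson r of 0.983, but with the library labelled untreated replicate 3 only at 0.807 and 0.801. That library correlated at 0.983 to 0.987 with those of the iRFA tumors. These values are across genes, which are not independent replicates. Of 8 mesothelial genes, 8 were higher in untreated replicates 1 and 2 than in the other 4 libraries, beside 34.6% of all genes tested. Their summed levels were 718 and 663 FPKM against 1.16 to 1.76 FPKM. The keratins Krt8 and Krt18 were at 179.6 to 247 FPKM in these replicates and at 0.122 FPKM or less in the others. Rhox5, a homeobox gene often active in tumor lines, was at 148 to 177 FPKM in the other 4 libraries and at 0.113 FPKM or less in untreated replicates 1 and 2. The colon factor Cdx2 was at 0.0231 FPKM or less in every library. Which library, if any, departs from its label cannot be told from the files, so each test of the 10 genes is given with and without these untreated libraries. The most frequent ratio between libraries of low values of the same gene put their depth at 1.00 to 1.10 times that of untreated replicate 1. The absolute depth is unknown.

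Fosl1 showed the widest gap of the 10 genes. It was at 2.76 and 2.63 FPKM for untreated replicates 1 and 2, at 66.4 FPKM for the library labelled untreated replicate 3, and at 65.1, 71.6 and 51.9 FPKM in iRFA replicates 1 to 3. The library labelled untreated replicate 3 thus lay inside the iRFA range, while the other untreated libraries were more than an order of magnitude below it. The iRFA tumors averaged 62.9 ± 10.1 FPKM and the untreated ones 23.9 ± 36.8 FPKM (SD, n = 3), with a log2 fold change on the log2(FPKM + 1) scale of 2.70 (standard error, SE, 1.17, adjusted p = 0.250 from limma, adjusted over all genes by Benjamini-Hochberg). Without the library labelled untreated replicate 3 the log2 fold change was 4.10 (standard error 0.14, adjusted p = 1.3e-05), and without untreated replicates 1 and 2 it was −0.09 (standard error 0.20, adjusted p = 0.930). Among all genes of its library, Fosl1 stood at percentiles of 65.4 and 64.9 in untreated replicates 1 and 2 and of 97.0 to 97.9 in the other 4. Its locus at chr19:5447547-5455946 (GRCm38, plus strand) overlaps Ccdc85b on the opposite strand, and the strandedness of the libraries is not given in the sources used here. Ccdc85b was at 56.0 to 58.3 FPKM for untreated replicates 1 and 2 and at 65.1 to 93.6 FPKM in the others, a much smaller gap than that of Fosl1.

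**Figure D1:**
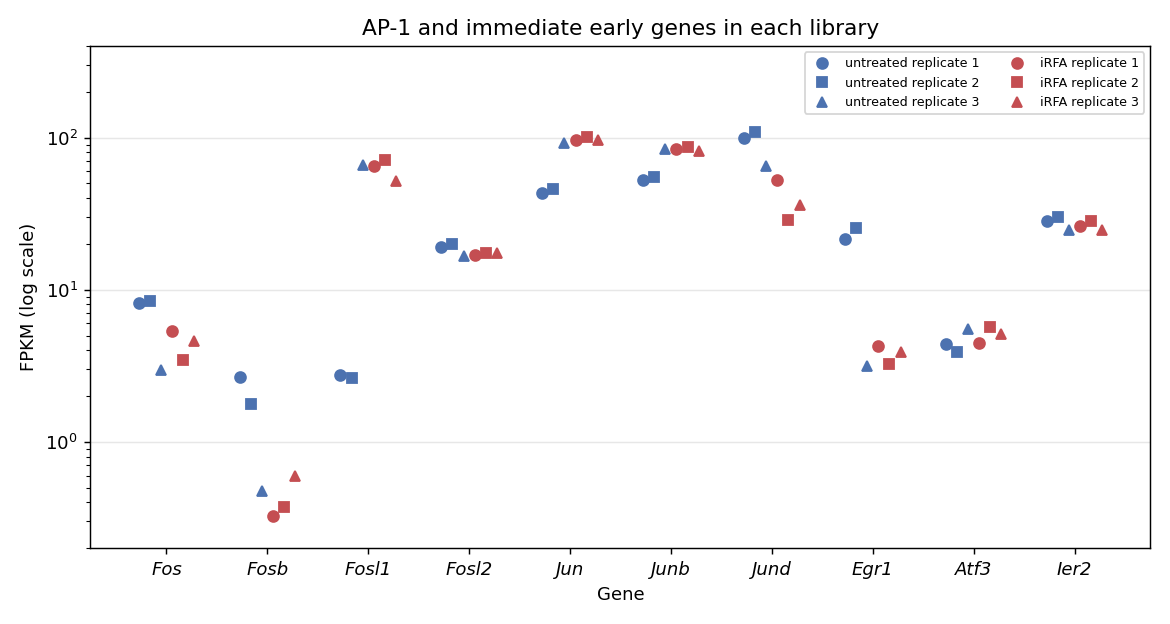
Level of each of the 10 genes in FPKM (vertical axis, log scale) in the 3 untreated (blue) and 3 iRFA (red) libraries, with 1 symbol per library. For Fosl1, untreated replicates 1 and 2 are at 2.76 and 2.63 FPKM and the other 4 libraries at 51.9 to 71.6 FPKM, whereas for Egr1 the same replicates are at 21.6 and 25.3 FPKM and the others at 3.17 to 4.25 FPKM.

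Fos (chr12:85473890-85477273, plus strand), the founding partner of Jun and the standard immediate early gene, was placed in the opposite direction. It was at 8.16, 8.39 and 2.96 FPKM in untreated replicates 1 to 3 and at 5.37, 3.46 and 4.58 FPKM in iRFA replicates 1 to 3. The iRFA libraries lay between the untreated ones, below replicates 1 and 2 and above the library labelled untreated replicate 3. By limma the log2 fold change was −0.37 (standard error 0.37, adjusted p = 0.495), and it was −0.78 (adjusted p = 0.00695) without the library labelled untreated replicate 3 and 0.45 without untreated replicates 1 and 2 (adjusted p = 0.774), so its sign depended on which untreated libraries were kept.

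The stretches just before the starts of Fos and its partner Jun, given further on, are shown because the 2 genes differed in direction. Untreated replicates 1 and 2 lay above the other 4 libraries for Fos and below them for Jun. They are the 100 bases before each start, from RefSeq on GRCm38.p6, at chr12:85473790-85473889 on the plus strand for Fos and at chr4:95052223-95052322 on the minus strand for Jun. Capitals mark TGACGT, the core of the cyclic AMP response element, and the TATA box TATAAA in Fos, and in Jun the letters TGACATCA, a variant of the AP-1 site known in this promoter.
Fos: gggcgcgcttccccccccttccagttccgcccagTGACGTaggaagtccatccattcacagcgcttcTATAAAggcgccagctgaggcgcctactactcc
Jun: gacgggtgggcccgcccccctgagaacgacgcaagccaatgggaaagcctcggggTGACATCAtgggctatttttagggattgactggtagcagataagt
The marked letters begin 66 and 33 bases before the start of Fos and 45 bases before that of Jun. A RefSeq window from 250 bases before to 50 after the start was matched for 7 of the 10 genes. Searched on both strands, TGACGT is in 7.51% of all 32851 such windows and in those of Fos and Atf3, and TGACATCA is in 3.62% and in that of Jun. TATAAA, searched on the strand of the gene, is in 8.32%, and in the windows of Fos and Junb. The plain AP-1 site TGACTCA or its reverse complement is in 5.2% of all windows and in 0 of these 7. These motifs do not overlap each other, and the matches describe the letters only.

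Fosb (chr7:19302696-19310051, minus strand), a close relative of Fos induced by the same signals, was the lowest of the 10 genes in every library. It was at 2.67, 1.78 and 0.473 FPKM in untreated replicates 1 to 3 and at 0.326, 0.373 and 0.596 FPKM after iRFA. The groups overlapped through the library labelled untreated replicate 3 alone. The log2 fold change of −0.79 (SE 0.35, adjusted p = 0.250) became −1.47 with a pseudocount of 0.1, since adding 1 compresses values this low. It was −1.16 (adjusted p = 0.00146) without the library labelled untreated replicate 3 and −0.05 without untreated replicates 1 and 2 (adjusted p = 0.949).

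Fosl2 (chr5:32135801-32157842, plus strand), which encodes FRA-2, the other late Fos protein, differed little in size. It was at 19.2, 19.9 and 16.6 FPKM without treatment and at 16.9, 17.3 and 17.3 FPKM after iRFA, and the groups overlapped. Its log2 fold change was −0.10 (standard error 0.10, adjusted p = 0.487). Without the library labelled untreated replicate 3 it was −0.18 and passed the threshold (adjusted p = 0.0286), and without untreated replicates 1 and 2 it was 0.05 (adjusted p = 0.882).

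The make-up of the Fos family therefore differed between libraries. Fosl2 held 58.5% and 60.9% of the summed Fos family FPKM for untreated replicates 1 and 2, followed by Fos at 24.9% and 25.6%. In the library labelled untreated replicate 3 Fosl1 held 76.8%, and in iRFA replicates 1 to 3 it held 74.2%, 77.2% and 69.8%. Fos itself had a share of 3.43% in the library labelled untreated replicate 3 and of 3.73% to 6.16% after iRFA. The summed level of the family was 32.8 and 32.7 FPKM for untreated replicates 1 and 2 and 74.3 to 92.8 FPKM in the other 4 libraries, a gap made by Fosl1. These shares are descriptions of each library and carry no test.

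The Jun genes encode the partners that every Fos protein needs. Jun, whose upstream stretch is printed beside that of Fos, was at 43.5, 46.2 and 92.6 FPKM in untreated replicates 1 to 3 and at 96.8, 100.2 and 96.6 FPKM in iRFA replicates 1 to 3. It alone among the 10 genes was higher in all 3 iRFA libraries than in any untreated one, although the library labelled untreated replicate 3 came within a few FPKM of the iRFA libraries. The mean was 97.9 ± 2.01 against 60.7 ± 27.6 FPKM (SD, n = 3), and the log2 fold change by limma was 0.77 (standard error 0.30, adjusted p = 0.250). It was 1.11 (adjusted p = 3.9e-05) without the library labelled untreated replicate 3 and 0.08 without untreated replicates 1 and 2 (adjusted p = 0.804). The antisense gene Junos shares its locus at chr4:95049034-95052222 (Jun on the minus strand) and was at 0.187 to 0.649 FPKM.

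Junb (chr8:84974484-84978718, minus strand), which can restrain Jun in dimers, followed the same order. It was at 52.7, 54.7 and 83.8 FPKM without treatment and at 84.0, 86.2 and 81.2 FPKM after iRFA, so the groups overlapped through the library labelled untreated replicate 3. Its log2 fold change was 0.42 (standard error 0.19, adjusted p = 0.250), 0.63 (adjusted p = 2.4e-04) without the library labelled untreated replicate 3 and −7.7e-04 without untreated replicates 1 and 2 (adjusted p = 1.00). Prdx2 overlaps Junb on the opposite strand and was at 55.5 and 58.3 FPKM for untreated replicates 1 and 2 and at 92.3 to 97.8 FPKM in the others. Reads of Prdx2 and Junb may not be told apart there, which makes Junb uncertain.

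Jund (chr8:70698949-70700616, plus strand), the constitutive Jun gene that is less dependent on growth stimuli, went the other way. It was at 98.8, 108 and 65.3 FPKM in untreated replicates 1 to 3 and at 53.0, 28.6 and 36.1 FPKM in iRFA replicates 1 to 3. Every iRFA library lay below every untreated library, which held for no other of the 10 genes. The mean was 39.3 ± 12.5 against 90.6 ± 22.4 FPKM (SD, n = 3), and the log2 fold change of −1.20 (standard error 0.29) had an unadjusted p of 0.0066 and an adjusted p of 0.250 from limma. Gm11175 overlaps Jund on the opposite strand and was at 0.499 FPKM or less. The log2 fold change of Jund was −1.42 (adjusted p = 0.00416) without the library labelled untreated replicate 3 and kept its sign at −0.76 without untreated replicates 1 and 2 (adjusted p = 0.767). The iRFA libraries themselves spread widely, with an SD of 0.44 on the log2 scale, and 2.95% of the 5703 genes averaging 10 FPKM or more had a larger one.

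Within the Jun family, Jund held 50.7% and 51.6% of the summed FPKM for untreated replicates 1 and 2, 27.0% in the library labelled untreated replicate 3 and 22.7%, 13.3% and 16.9% in iRFA replicates 1 to 3. Jun held 22.3% and 22.1% in untreated replicates 1 and 2, 38.3% in the library labelled untreated replicate 3, and 41.4%, 46.6% and 45.2% after iRFA. The ratio of Jun to Jund was 0.440 and 0.429 in untreated replicates 1 and 2, 1.42 in the library labelled untreated replicate 3, and 1.82, 3.50 and 2.68 in the iRFA libraries. Unlike the share of Fosl1 in the Fos family, this ratio placed the library labelled untreated replicate 3 outside the iRFA range, between the other untreated libraries and the treated ones. The summed level of the family, 195 to 242 FPKM without treatment and 214 to 234 FPKM after iRFA, overlapped between the groups.

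**Figure D2:**
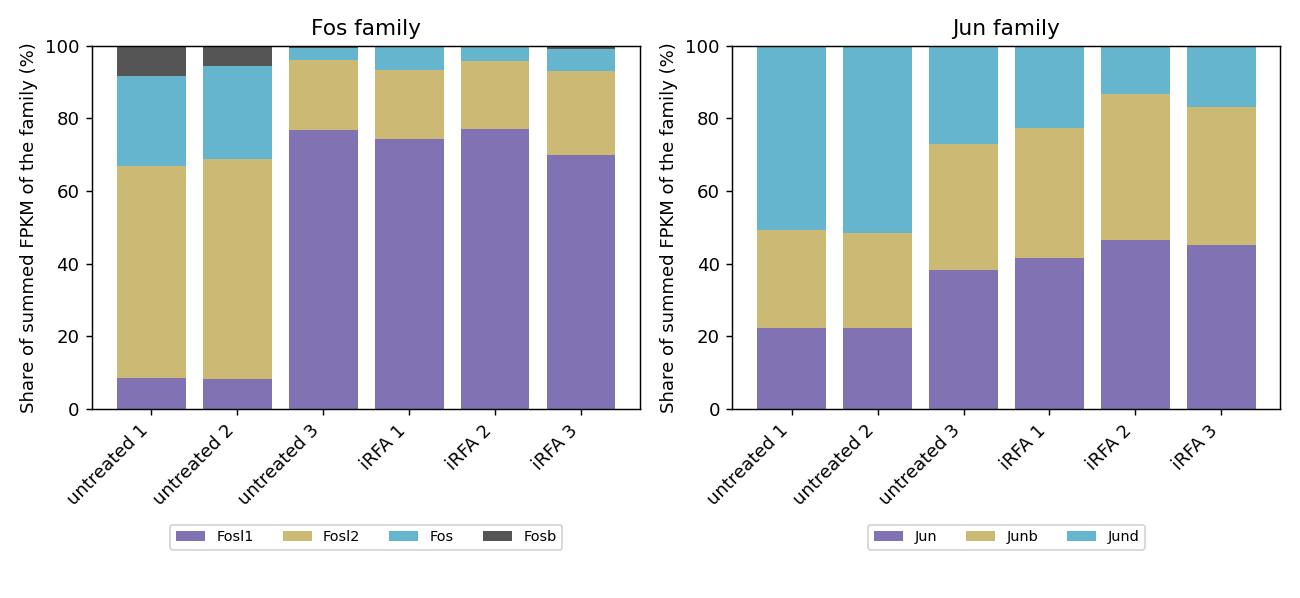
Share of each gene in the summed FPKM of the Fos family (left) and of the Jun family (right), in percent, with 1 bar per library. Fosl1 takes 8.42% and 8.05% of the Fos family in untreated replicates 1 and 2 and 69.8% to 77.2% in the other 4 libraries, and Jund takes 50.7% and 51.6% of the Jun family in these replicates and 13.3% to 27.0% in the others.

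Egr1 (chr18:34859823-34864984, plus strand), a zinc finger factor induced by the same MAP kinase route as Fos, had the widest gap among the early genes of the 10. It was at 21.6 and 25.3 FPKM for untreated replicates 1 and 2, at 3.17 FPKM for the library labelled untreated replicate 3, and at 4.25, 3.24 and 3.89 FPKM after iRFA. The library labelled untreated replicate 3 was the lowest of all 6, just under the iRFA range. For Egr1 the log2 fold change was −1.50 (standard error 0.72, adjusted p = 0.250), −2.35 (adjusted p = 4.6e-05) without the library labelled untreated replicate 3 and 0.20 without untreated replicates 1 and 2 (adjusted p = 0.819). Egr1 stood at percentiles of 91.9 and 93.4 among all genes in untreated replicates 1 and 2 and at percentiles of 69.1 to 72.2 in the others.

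Atf3 (chr1:191170296-191218039, minus strand), a stress-induced factor of the same leucine zipper class that pairs with Jun, was close in all libraries. It was at 4.40, 3.92 and 5.54 FPKM without treatment and at 4.44, 5.66 and 5.15 FPKM after iRFA, and the groups overlapped. Its log2 fold change of 0.12 (SE 0.15, adjusted p = 0.583) was 0.23 (adjusted p = 0.108) without the library labelled untreated replicate 3 and turned to −0.11 without untreated replicates 1 and 2 (adjusted p = 0.889).

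Ier2 (chr8:84661331-84662852, minus strand), a small nuclear protein of the early response, was also close in all libraries. It was at 28.1, 30.0 and 24.7 FPKM without treatment and at 26.1, 28.1 and 24.7 FPKM after iRFA. For Ier2 the log2 fold change was −0.06 (standard error 0.11, adjusted p = 0.694), −0.14 (adjusted p = 0.151) without the library labelled untreated replicate 3 and 0.09 without untreated replicates 1 and 2 (adjusted p = 0.853). It was the only gene of the 10 for which untreated replicates 1 and 2 did not fall wholly above or below the other 4 libraries.

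By limma, 0 of the 10 genes were higher and 0 lower after iRFA, as were 0% and 0% of all genes tested. At an unadjusted p under 0.05, Jun was higher and Jund lower, beside 7.94% of all genes higher and 6.75% lower. Without overlap between the groups, 1 of the 10 was higher and 1 lower, and of all genes 11.4% were higher and 10.5% lower. These shares are near those of all genes, and the log2 fold changes of the 10, with 4 positive and 6 negative, had a median of −0.08 beside 0.02 over all genes. Without the library labelled untreated replicate 3, Fosl1, Jun and Junb were higher and Fos, Fosb, Fosl2, Jund and Egr1 lower, that is 3 and 5 of 10, beside 33.9% of all genes higher and 30.3% lower. With untreated replicates 1 and 2 left out, and the 1 remaining untreated library taken to vary as the iRFA tumors do, 0 of the 10 were higher and 0 lower, beside 0.00643% and 0% of all genes. With 3 libraries against 3, an exact permutation test of a single gene could not go below p = 0.1.

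**Figure D3:**
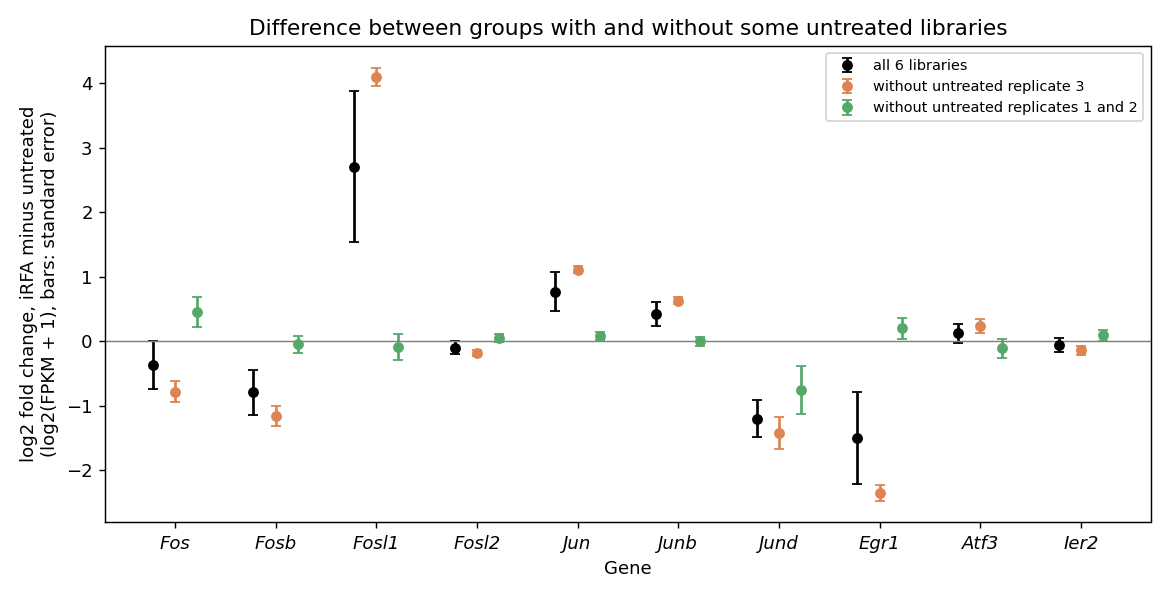
Log2 fold change of each gene, iRFA minus untreated, on the log2(FPKM + 1) scale, with bars for the standard error from limma, from all 6 libraries (black), without the library labelled untreated replicate 3 (orange) and without untreated replicates 1 and 2 (green). Fosl1 moves from 4.10 to −0.09 and Egr1 from −2.35 to 0.20 between the last settings, while Jund keeps a negative value at −1.42 and −0.76.

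The position of single libraries shows the same in counts. In 4 of the 10 genes untreated replicates 1 and 2 were both below the other 4 libraries, and in 5 both were above, beside 39.5% and 34.6% of all genes. The library labelled untreated replicate 3 was inside the iRFA range in 4 of 10 genes, beside 45.7% of all genes, below it in 5, beside 25.7%, and above it in 1, beside 28.6%. The 1 gene above the range was Jund. The 5 below it were Fos, Fosl2, Jun, Egr1 and Ier2, each by at most a few FPKM.

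Set against the immediate early genes of its own library, Fosl1 changed place. The immediate early genes were taken as Fos, Fosb, Jun, Junb, Egr1, Atf3 and Ier2, and the log2(FPKM + 1) value of Fosl1 minus their mean was computed in each library. This difference was −2.10 and −2.14 in untreated replicates 1 and 2, 2.51 in the library labelled untreated replicate 3, and 2.38, 2.55 and 2.05 in iRFA replicates 1 to 3. Fosl1 was below 6 of the 7 early genes in untreated replicates 1 and 2 and below 2 of 7, Jun and Junb, in each of the other libraries. The 7 early genes went both ways, with Jun and Junb lower and Fos, Fosb and Egr1 higher in untreated replicates 1 and 2, so their mean does not describe each of them. It was 4.01 in both untreated replicates 1 and 2, 3.56 in the library labelled untreated replicate 3 and 3.63 to 3.67 after iRFA.

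The averaged difference was 2.33 after iRFA and −0.58 without treatment, a gap of 2.91 on the log2 scale, with SDs of 0.26 and 2.67 between the libraries (n = 3 each). Without untreated replicates 1 and 2 the gap was −0.18, and without the library labelled untreated replicate 3 it was 4.45. As a score over chosen genes it carries no test. As plain ratios, Fosl1 was at 0.338 and 0.314 times the FPKM of Fos in untreated replicates 1 and 2, at 22.4 times in the library labelled untreated replicate 3 and, after treatment, at 11.3 to 20.7 times.

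**Figure D4:**
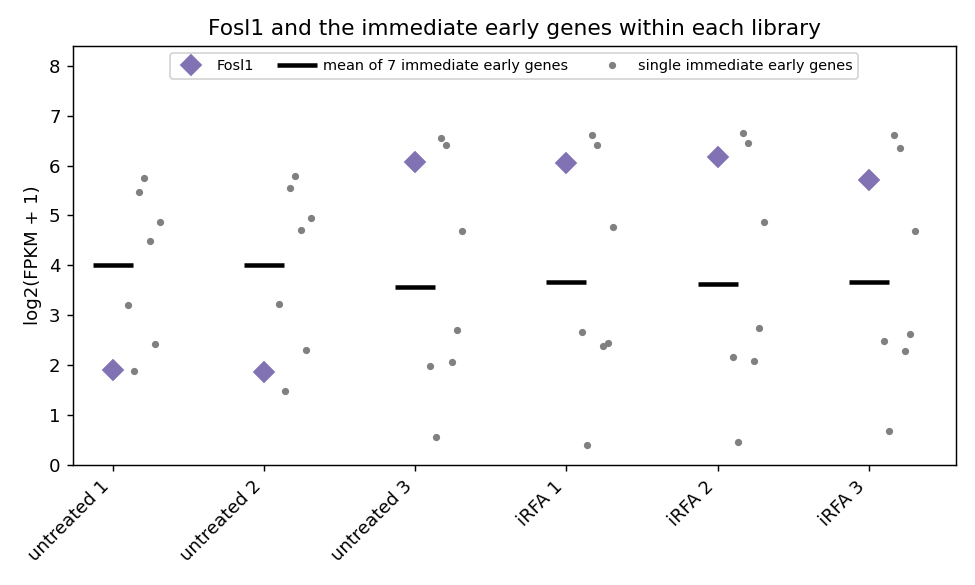
Level of Fosl1 (diamond), the 7 immediate early genes (grey points) and their mean (black dash) in log2(FPKM + 1), by library. Fosl1 lies below the mean in untreated replicates 1 and 2, by 2.10 and 2.14, and above it in the other 4 libraries, by 2.05 to 2.55.

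Levels of cell type genes moved with this split of the libraries. Of 8 macrophage genes, 8 lay higher in all iRFA libraries than in any untreated one, beside 11.4% of all genes tested. Their summed levels were 3066 to 3441 FPKM after iRFA, 1383 and 1374 FPKM for untreated replicates 1 and 2 and 2783 FPKM for the library labelled untreated replicate 3. The 8 fibroblast genes summed to 3239 and 3785 FPKM for untreated replicates 1 and 2 and to 492 to 772 FPKM in the others. In 5 of 8 these replicates were both above the other 4 libraries, beside 34.6% of all genes tested. In 1, Pdgfra, both were below, beside 39.5%. The 8 keratinocyte genes summed to 74.7 and 301 FPKM in these replicates and to 1.91 to 4.26 FPKM in the others. Of these genes, 5 of 8 were higher in these replicates, beside 34.6% of all genes tested. Most of the sum in untreated replicate 1 was Krt14, at 65.2 FPKM, with Krt15 at 5.12 FPKM and Krt5 at 0.875 FPKM. Untreated replicate 2 had Krt14 at 198 FPKM, Krt5 at 65.7 FPKM, Krt15 at 16.8 FPKM and Krtdap at 11.5 FPKM. Krt5, Krt10 and Dsg1a did not set both replicates apart from the others. The sums of these 3 lists thus followed the split of the libraries, while single fibroblast and keratinocyte genes did not all do so. Macrophage genes were also lower in the library labelled untreated replicate 3 than in every iRFA library. Skeletal muscle genes summed to 173 and 212 FPKM for untreated replicates 1 and 2, to 1.25 FPKM for the library labelled untreated replicate 3 and to 32.7 to 49.7 FPKM after iRFA. The 8 genes listed for CT26 and colon epithelium summed to 467 and 439.8 FPKM for untreated replicates 1 and 2 and to 152 to 179.9 FPKM in the others, but they went both ways. Of the 8, 5 were higher in these replicates, Krt8 and Krt18 among them, beside 34.6% of all genes tested. Rhox5, which makes up nearly all of the sum in the others, was lower. Sums of 8 T cell genes were 47.0 and 47.2 FPKM for untreated replicates 1 and 2 and 17.6 to 32.6 FPKM in the others, and those of 8 endothelial genes overlapped, at 38.9 to 45.1 FPKM without treatment and 34.0 to 46.8 FPKM after iRFA. The 7 neutrophil genes in the files summed to 14.1 and 20.7 FPKM for untreated replicates 1 and 2 and to 5.45 to 9.94 FPKM in the others, with Camp, Cxcr2 and Mmp8 under 1 FPKM in all libraries. The part of these cell types in the differences of the AP-1 genes was not tested, and in bulk RNA fewer cells of a type and less RNA per cell cannot be told apart.

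Other early response genes lay mostly on the lower side after iRFA, with 0 called. Of 37 such genes 34 were tested, with 11 positive and 23 negative log2 fold changes and a median of −0.28, beside a median of 0.02 over all genes tested. Without overlap, 1 was higher and 4 lower, together 14.7%, beside 21.9% of all genes. Without the library labelled untreated replicate 3, 7 were higher and 20 lower, beside 33.9% and 30.3% of all genes, and without untreated replicates 1 and 2 the median was 0.01. The kinase gene Sgk1, which responds to serum and glucocorticoids, was at 72.8 ± 4.83 against 44.8 ± 15.9 FPKM (SD, n = 3) without overlap. The mRNA decay factor Zfp36l1 was at 92.4 ± 3.67 against 112 ± 5.73 FPKM and the orphan nuclear receptor gene Nr4a2 at 1.52 ± 0.326 against 2.90 ± 0.794 FPKM, both lower without overlap. For both, the library labelled untreated replicate 3 was at 106 and 1.99 FPKM, against highest iRFA values of 96.6 and 1.84 FPKM. The abundant Rhob, a small GTPase, was at 96.3 ± 4.10 against 106 ± 3.30 FPKM, lower without overlap, and Zfp36l2 at 92.8 ± 13.6 against 84.0 ± 11.6 FPKM with overlap.

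Some of these genes repeated the split seen for Egr1 and were chosen after their values were seen. Ier3, an early gene of cell survival, was at 84.3 and 74.6 FPKM for untreated replicates 1 and 2, at 12.2 FPKM for the library labelled untreated replicate 3 and at most that, 9.22 to 12.2 FPKM, after iRFA. Btg2, an antiproliferative gene, was at 36.0 and 40.5 FPKM, then 4.51 FPKM, and 4.14 to 4.85 FPKM after iRFA. Nr4a1 was at 12.8 and 12.8 FPKM, then 2.91 FPKM, and 3.13 to 3.31 FPKM after iRFA. In each the library labelled untreated replicate 3 stood with or next to the iRFA libraries.

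The growth regulator Myc, also chosen after its values were seen, was placed like Fosl1. It was at 6.76 and 6.66 FPKM for untreated replicates 1 and 2, at 24.7 FPKM for the library labelled untreated replicate 3, and at 29.8, 35.1 and 23.6 FPKM after iRFA. The log2 fold change was 1.39 (standard error 0.51, adjusted p = 0.250). Myc and Egr1, both early genes, thus lay on opposite sides of the split.

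Among 23 other leucine zipper genes that pair with or resemble AP-1, all tested, 7 log2 fold changes were positive and 16 negative, with a median of −0.14. None was higher and 4 were lower without overlap, together 17.4% beside 21.9% of all genes, and 0 were called by limma. At an unadjusted p under 0.05, 0 were higher and 4 lower, beside 7.94% and 6.75% of all genes. Without the library labelled untreated replicate 3, 4 were higher and 11 lower by limma, beside 33.9% and 30.3% of all genes, with a median of −0.25. The amino acid stress factor Atf4 was at 56.9, 55.6 and 137 FPKM without treatment and at 123, 98.6 and 85.8 FPKM after iRFA, so the library labelled untreated replicate 3 was the highest of all. Atf5 was at 49.1 ± 3.57 against 38.9 ± 17.6 FPKM and the antioxidant regulator Nfe2l2 at 33.4 ± 1.64 against 36.3 ± 6.40 FPKM (SD, n = 3), both with overlap. Bach2, a repressor of AP-1 sites in lymphocytes, was at 0.284 ± 0.0622 against 0.856 ± 0.270 FPKM, and Maf, a factor of macrophages and T cells, at 19.7 ± 2.90 against 28.5 ± 4.97 FPKM, both lower without overlap. For both, the library labelled untreated replicate 3 was at 0.572 and 22.8 FPKM, against highest iRFA values of 0.352 and 21.6 FPKM.

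The kinases and nuclear regulators that switch on these genes were balanced. Of 26 tested, 14 log2 fold changes were positive and 12 negative, with a median of 0.02, 3 were higher and 1 lower without overlap (15.4%, beside 21.9% of all genes), and 0 were called. Without the library labelled untreated replicate 3, 6 were higher and 7 lower by limma, beside 33.9% and 30.3% of all genes. Elk3, a partner of serum response factor, was at 39.7 ± 2.23 against 23.2 ± 11.9 FPKM, and the p38 kinase activator Map2k3 at 19.2 ± 1.07 against 12.8 ± 2.99 FPKM, both higher without overlap. Mrtfb, an actin-sensitive coactivator of serum response factor, was at 5.93 ± 0.248 against 7.04 ± 0.724 FPKM, lower without overlap. For Elk3 and Map2k3 the library labelled untreated replicate 3 was at 36.9 and 16.2 FPKM, against lowest iRFA values of 38.3 and 18.3 FPKM. For Mrtfb that library was at 6.20 FPKM, against a highest iRFA value of 6.14 FPKM. The ERK kinase gene Mapk3 was at 60.8 ± 2.75 against 74.9 ± 15.8 FPKM (SD, n = 3), with overlap. The receptor gene Egfr and the kinase gene Map3k1, chosen after their values were seen, were at 13.3 and 12.9 FPKM and at 29.0 and 27.4 FPKM for untreated replicates 1 and 2, against 3.11 to 3.98 FPKM and 4.46 to 5.42 FPKM in the other 4 libraries.

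Feedback inhibitors of MAP kinases, which are induced by the pathway they shut off, were balanced as well over all 6 libraries. Without the library labelled untreated replicate 3, 5 were higher and 7 lower by limma, beside 33.9% and 30.3% of all genes, with a median log2 fold change of −0.25. The values below are from all 6 libraries. Of 17 tested, 9 log2 fold changes were positive and 8 negative, with a median of 0.01, 1 was higher and 1 lower without overlap (11.8%, beside 21.9% of all genes), and 0 were called. The phosphatase gene Dusp4 was at 8.18, 9.06 and 3.59 FPKM without treatment and at 2.58, 2.29 and 2.34 FPKM after iRFA. Dusp14 was at 2.77, 1.90 and 2.55 FPKM without treatment and at 4.08, 3.80 and 4.14 FPKM after iRFA. For both genes the groups did not overlap. For Dusp4 the library labelled untreated replicate 3 was nearer to the iRFA libraries than to the other untreated ones, and for Dusp14 it lay between the other untreated ones. The ERK phosphatase Dusp6, the most abundant of the list, was at 36.2 ± 2.44 against 42.1 ± 6.02 FPKM, Dusp7 at 22.9 ± 0.577 against 15.6 ± 6.87 FPKM and Spred1 at 20.0 ± 0.821 against 19.7 ± 0.330 FPKM (SD, n = 3), with overlap in each.

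Genes known as targets of AP-1 dimers, some of them of FRA-1, did not share a direction. Of 26 such genes 23 were tested, with 13 positive and 10 negative log2 fold changes and a median of 0.11, 3 were higher and 2 lower without overlap (21.7%, beside 21.9% of all genes), and 0 were called. Without the library labelled untreated replicate 3, 11 were higher and 9 lower by limma, beside 33.9% and 30.3% of all genes. The chromatin protein gene Hmga2 was at 25.8 ± 3.13 against 9.18 ± 10.6 FPKM, the receptor kinase Axl at 142 ± 5.86 against 118 ± 14.4 FPKM and the urokinase receptor Plaur at 14.6 ± 2.00 against 11.5 ± 0.822 FPKM (SD, n = 3), all higher without overlap. The membrane protease Mmp14 was at 70.0 ± 3.75 against 86.1 ± 12.6 FPKM and Phlda1 at 11.3 ± 0.741 against 15.0 ± 2.76 FPKM, both lower without overlap. Cyclin D1 (Ccnd1) was at 33.9, 34.1 and 223 FPKM without treatment and at 250.4, 264 and 221 FPKM after iRFA, and Hmga1 at 54.1, 32.3 and 195 FPKM and at 198, 331 and 154 FPKM. Both repeated the order of Fosl1, with the library labelled untreated replicate 3 inside the iRFA range for Ccnd1 and for Hmga1.

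Secreted proteases and their inhibitor in the same list split in both directions and were chosen after their values were seen. Mmp9 was at 15.8 and 21.9 FPKM for untreated replicates 1 and 2 and at 162 to 185 FPKM in the other 4 libraries. Mmp3 was at 32.8 and 27.7 FPKM in these replicates and at 5.09 to 12.2 FPKM in the others, and the inhibitor Timp1 at 86.2 and 98.8 FPKM against 28.7 to 34.2 FPKM. Of the 23 tested targets, 12 had untreated replicates 1 and 2 below the other 4 libraries and 9 had them above, beside 39.5% and 34.6% of all genes.

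**Figure D5:**
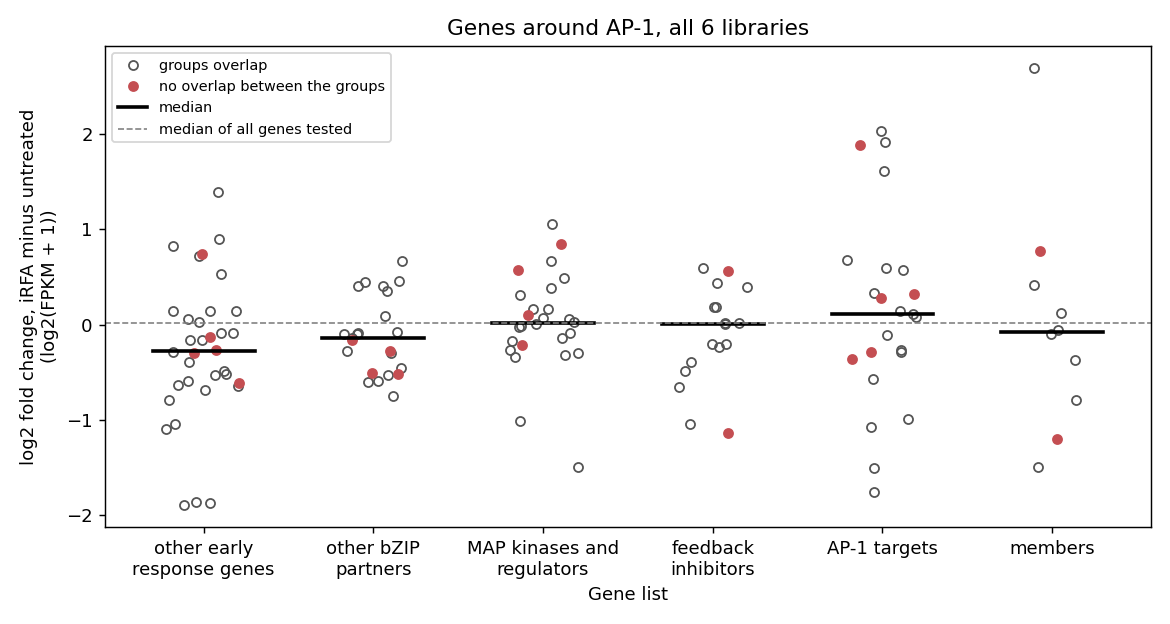
Log2 fold change of each tested gene, iRFA minus untreated on the log2(FPKM + 1) scale from all 6 libraries, for the 5 lists around AP-1 and for the 10 genes, with the median of each list (black line) and of all genes tested (dashed line). Filled points are genes whose groups do not overlap, and the medians run from −0.28 for the other early response genes to 0.11 for the AP-1 targets.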

How the data were processed

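Libraries of bulk RNA from CT26 tumors, 3 untreated and 3 iRFA-treated, were grouped by the labels. Per the labels, reads were checked with FastQC, aligned with HISAT2 to GRCm38 and quantified with StringTie, with versions not given in the sources used here. The deposited FPKM values are per gene and hold no counts, so no count test or counting interval was made. Identifiers were named and placed with GENCODE mouse release 21 (GRCm38), in which 32060 of 32110 were found.

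The 15560 genes that averaged 0.5 FPKM or more across the 6 libraries (16550 were not tested) were compared on log2(FPKM + 1), a scale that understates the change of low genes, by two-sided tests of limma 3.58.1 (R 4.3.3) without covariates and with its mean-variance trend, adjusted over all of them by Benjamini-Hochberg at 0.05. The fit was tested on simulated data with independent noise in each gene. Those data held no split among the untreated libraries, so the simulation cannot speak to that split. Nothing says more of the replicates than that they are separate samples, so p-values measure the spread between these samples. Tables and plots used Python 3.11.15, pandas 2.3.3 and matplotlib 3.10.9.

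The genes and lists were chosen with earlier results of these data known. The genes named are the 10, the 3 most abundant members of each other list, and up to 2 members each with the highest and lowest log2 fold change among those without overlap, except for 1 gene that is not reported here. Where another gene is named, the text says that its values had been seen. Alternatives were another pseudocount, other filters and scalings, limma without the trend or with array weights, the replicate number as a block, and libraries left out.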

Additional observations from a re-analysis of the deposited data

How the results depend on the processing

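Counts of 0 genes higher and 0 lower, and of 0 of the 10 AP-1 and early genes in each direction, held under the pseudocount of 0.1, no filter, a mean of at least 1 FPKM, all 3 scalings, limma without the trend and the replicate block. With each library left out in turn, the counts ran from 0 to 5269 genes higher and 0 to 4711 lower, and from 0 to 3 of the 10 higher and 0 to 5 lower, the upper ends being those without the library labelled untreated replicate 3. Array weights gave 5798 genes higher and 5157 lower, with 3 and 5 of the 10, and gave that library a weight of 0.0391 against 1.26 to 3.52 for the others. Without untreated replicates 1 and 2, 1 gene was higher and 0 lower. The gap of Fosl1 over the early genes ran from 2.12 to 4.45 with 1 library left out, and was 3.28 with a pseudocount of 0.1, 3.16 without Atf3 and Jun, 4.0 with a median, and −0.18, reversed, without untreated replicates 1 and 2.

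Without untreated replicates 1 and 2 the sign of the log2 fold change also turned for Fos (0.45), Fosl1 (−0.09), Fosl2 (0.05), Junb (−7.7e-04), Egr1 (0.20), Atf3 (−0.11), Ier2 (0.09), Atf4 (−0.44), Atf5 (−0.27), Ccn2 (0.83), Dusp6 (0.04), Dusp7 (−0.04), Egfr (0.17), Map3k1 (0.07), Mapk3 (0.10), Mmp3 (0.48), Mmp9 (−0.12), Nfe2l2 (0.20), Nr4a1 (0.11), Socs3 (0.21), Timp1 (0.08) and Zfp36l2 (−0.08). Spred1 turned to −0.06, −0.02 and −0.03 under the 3 scalings and to −0.01 with array weights and without iRFA replicate 3. In 86 cases a named gene passed the threshold under array weights or without the library labelled untreated replicate 3, and in 0 cases was a call lost, since there was none to lose. The causes were not tested.

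The deviations of same-numbered libraries from their group means had correlations of −0.0944, −0.105 and −0.23. Those of differently numbered libraries ran from −0.154 to 0.235. With 3 libraries per group and the split among the untreated libraries, these values cannot show or exclude a pairing by replicate number. With the replicate block 0 genes were higher and 0 lower. With the absolute depth unknown, no counting error could be computed for low values such as those of Fosb and Bach2.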

Other observations

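Jund spread more among the iRFA libraries than the other 9 genes, at 53.0, 28.6 and 36.1 FPKM, while Jun in the same libraries was at 96.8, 100.2 and 96.6 FPKM and Junb at 84.0, 86.2 and 81.2 FPKM. Hmga1, a target in the list above, spread further still, at 198, 331 and 154 FPKM, an SD of 0.56 on the log2 scale that 1.63% of the 5703 genes averaging 10 FPKM or more exceeded.

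The partner gene Cebpb did not follow the split between untreated replicates 1 and 2 and the others. It was at 6.15, 7.94 and 17.8 FPKM in untreated replicates 1 to 3 and at 12.1, 4.22 and 4.07 FPKM in iRFA replicates 1 to 3, so iRFA replicate 1 stood nearer to the library labelled untreated replicate 3 than to the other iRFA libraries.

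Some single values stood far from libraries that otherwise were alike. Spry1, a feedback inhibitor, was at 0.0624 FPKM in iRFA replicate 1 and at 8.11 and 5.01 FPKM in iRFA replicates 2 and 3. Creb1, the factor that binds the cyclic AMP response element, was at 1.08 FPKM in untreated replicate 1 and 5.54 FPKM in untreated replicate 2. The cause was not tested.

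Ccn2, a matrix-associated early gene, was at 80.2 and 82.2 FPKM for untreated replicates 1 and 2, at 3.90 FPKM for the library labelled untreated replicate 3 and at 7.18, 4.97 and 12.6 FPKM after iRFA. Socs3, a feedback inhibitor of cytokine signaling, was at 52.8 and 49.2 FPKM, then 17.3 FPKM, and 19.4, 19.0 and 22.2 FPKM after iRFA. These genes, and Cebpb, Spry1 and Creb1, were chosen after their values were seen.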
